A study of Mus musculus with 12 samples.

Results

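Glypicans and syndecans are the main families of cell-surface proteoglycans that carry heparan sulfate, a long sulfated sugar chain. Glypicans are held to the membrane by a lipid anchor, whereas syndecans cross it and end in a short cytoplasmic tail that contacts the cytoskeleton. Their chains bind growth factors, morphogens, chemokines and lipases and present them to receptors, and in fat both families are known from the commitment of precursors and from insulin and lipoprotein handling. The members were all probe sets whose only gene symbol in the platform annotation was Gpc1, Gpc3, Gpc4, Sdc1, Sdc2 or Sdc4. There were 8 such probe sets of 12422 for 6 of the 8251 genes named on the array, with a pair each for Sdc1 and Sdc2 and 1 for each other gene.

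The arrays compared 4 groups of 3 samples each from male C57BL/6 mice, an inbred strain, aged 42 to 49 days. The groups were isolated adipocytes of subcutaneous (SC) flank fat and of intraabdominal (IA) epididymal fat, and the stromo-vascular fraction (SVF) of each of these depots. Fat of 10 mice was pooled by depot and digested with collagenase, and nothing says whether the 3 samples of a group came from separate pools. The SVF, a mixture of precursors, fibroblasts, vessel and immune cells, was plated and harvested 16 h later, whereas adipocytes went straight to RNA, so cell fraction and culture cannot be told apart. The signal is the linear MAS5 value of a probe set, and the levels of different probe sets are not set against each other. In these bulk samples, fewer cells of a type and less RNA per cell cannot be told apart.

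The markers of the fractions followed the labels for adipocytes and fibroblasts, but not for endothelium. All 7 adipocyte markers tested were higher in adipocytes than in SVF cells of both depots, and their summed signal was 439622 to 575951 on the adipocyte arrays, against 5395 to 7296 on the SVF arrays. Of 9 preadipocyte and fibroblast markers 1 was higher and 7 lower in SC adipocytes than in the SVF cells, and 1 higher and 8 lower in IA adipocytes. Of 9 endothelial markers 8 were higher and none lower in adipocytes than in SVF cells of each depot, with sums of 19842 to 35498 in SC and 23439 to 25658 in IA adipocytes, against 10510 to 12078 in SC and 10329 to 17634 in IA SVF cells. No value in the table was 0, so no marker was listed at 0. The 3' to 5' signal ratio of the actin control, a sign of RNA breakdown where it is high, averaged 2.85 ± 0.43 and 2.04 ± 0.29 in adipocytes of SC and IA fat, against 1.22 ± 0.02 and 1.17 ± 0.05 in SVF cells of SC and IA fat (SD, n = 3 each). This ratio was 2.35 to 3.10 on SC and 1.71 to 2.24 on IA adipocyte arrays, against 1.11 to 1.24 on the SVF arrays. It thus separated the fractions, and the adipocytes of the depots, without overlap. Calls kept or lost with this ratio as a covariate therefore cannot tell RNA quality from these groups. Probe sets were compared on log2 of the signal plus 40.09, in 1 limma model over all arrays, and called at an adjusted p under 0.05 over the 8695 probe sets tested.

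Of the members, 6 probe sets, 1 per gene, passed the filter on low signal and were tested. Probe set 96033_at of Sdc1 lay just under the filter, at the 29.0th percentile of mean signal with the limit at the 30th. Probe set 162215_f_at of Sdc2 was dim, at the 8.49th percentile. The plot of signals by array shows all 8.

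**Figure D1:**
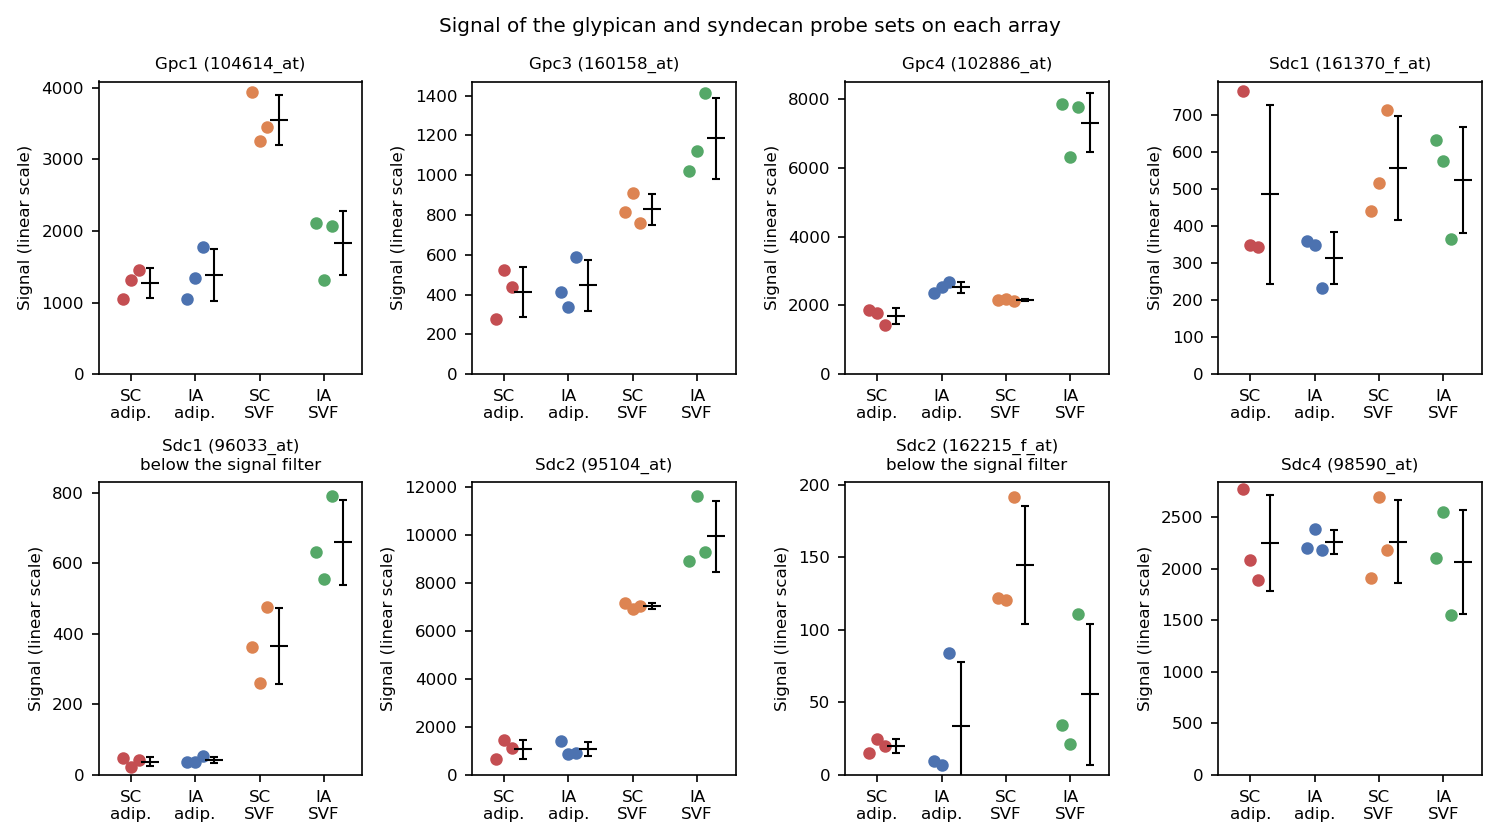
Signal (linear MAS5 scale, each axis from 0) of the 8 glypican and syndecan probe sets on each array; SC is subcutaneous, IA intraabdominal, adip. adipocytes and SVF the stromo-vascular fraction. Points are arrays, and bars give the mean ± SD of 3 (cut at 0 where the SD passes it). Gpc4 is highest on the 3 IA SVF arrays (6325 to 7857), Sdc2 probe set 95104_at is low on all 6 adipocyte arrays (655 to 1454), and Sdc4 overlaps in all 4 groups.

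Gpc4 was the member that differed between the depots in both cell fractions. It encodes glypican-4, which is also shed into blood from fat and, from work in mice, is known to bind the insulin receptor and favour its signalling. Gpc4 read 1870, 1771 and 1421 on the SC adipocyte arrays, against 2367, 2533 and 2669 on the IA adipocyte arrays. It read 2151, 2183 and 2119 on the SC SVF arrays, against 7857, 6325 and 7753 on the IA ones. The SC arrays were lower in each fraction, with no overlap.

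In SVF cells Gpc4 averaged 2151 ± 32.0 in SC and 7312 ± 856 in IA cells (SD, n = 3 each). The log2 difference, SC minus IA, was -1.74 ± 0.14 (SE; 3.34-fold lower in SC cells, limma adjusted p = 9.74e-07). This was the 100th lowest of 8695 log2 differences, and it was called under each of 22 alternatives (adjusted p 3.5e-08 to 1.81e-05). In adipocytes Gpc4 averaged 1687 ± 236 in SC and 2523 ± 151 in IA cells (SD, n = 3 each), a log2 difference of -0.58 ± 0.14 (SE; 1.49-fold lower, limma adjusted p = 0.021). The direction held in 22 of 22 alternatives, but the call was lost without IA adipocyte array 2 (adjusted p = 0.0705), with array weights (0.0533) and with only the 6 adipocyte arrays (0.115), over a range of 0.00174 to 0.115. Of all probe sets tested 4.16% were called lower in SC adipocytes (3.97% higher) and 6.45% lower in SC SVF cells (6.49% higher), and the groups of 24.3% and 37.3% did not overlap. Gpc4 was 1 of 96 probe sets (1.1%) called lower in both, which made up 26.5% of the 362 lower in SC adipocytes and 17.1% of the 561 lower in SC SVF cells.

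The depot difference of Gpc4 was larger in SVF cells than in adipocytes. The interaction, adipocyte depot difference minus SVF depot difference, was 1.16 ± 0.197 (log2, SE; limma adjusted p = 0.00175), and it was called in 21 of 21 alternatives (adjusted p 0.000653 to 0.0405). With each array centred on its median, which moved the median log2 difference of all probe sets in the adipocyte depot comparison to -0.15, against 0.07 as deposited, the Gpc4 difference there was -0.80. With the actin ratio as a covariate it was -0.91 (adjusted p = 0.0461).

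Markers of other cell types also differed between the SVF groups, some with Gpc4 and some against it. In SC cells 6 of 7 markers of smooth muscle and pericytes were lower, and the summed signal of the 7 was 32241 to 34418 in SC and 124633 to 150096 in IA cells. All 5 mesothelial markers tested were lower in SC cells, with a summed signal of 772 to 1069, against 6353 to 6571 in IA cells. Of 8 macrophage markers 4 were lower and 1 higher, with sums of 20594 to 21129 in SC and 27470 to 31241 in IA cells. Against the direction of Gpc4, 5 of 9 endothelial markers were higher in SC cells, though the SVF sums given above overlapped. The fibroblast list also ran opposite to Gpc4, with SC calls for 3 of its 9 genes, each upward. Its sums were 339997 to 372540 in SC and 232145 to 261407 in IA cells, without overlap. The part of these markers in the Gpc4 difference was not tested. Between adipocytes of the depots, where Gpc4 was also lower in the SC group, none of the 7 smooth muscle or 5 mesothelial markers was called in this limma fit (2 and 1 had an unadjusted p under 0.05). Their sums were 4611 to 7881 and 1035 to 1768 in SC adipocytes, against 6387 to 7534 and 1094 to 1676 in IA adipocytes. Among the smooth muscle markers Acta2 had a log2 difference of -0.80 (limma adjusted p = 0.0712), the direction of Gpc4. Cnn1 went the other way, at 0.90 (limma adjusted p = 0.199). Single markers of other lists were called in the direction of Gpc4 between these adipocytes. Lower in SC adipocytes were Acta1, 1 of 4 skeletal muscle markers (2.87-fold, limma adjusted p = 3.8e-05), and Ramp2, 1 of 9 endothelial markers (1.77-fold, 0.0195). So was the adipocyte hormone gene Lep, 1 of 7 adipocyte markers (2.15-fold, 0.0227). The median log2 differences of these lists were 0.076 (skeletal muscle), 0.355 (endothelium) and -0.466 (adipocyte). Acta1 and Ramp2 thus went against the medians of their lists. Called higher in SC adipocytes were 2 of 9 fibroblast markers and 1 of 8 macrophage markers. The part of all these markers in the Gpc4 difference of adipocytes was not tested.

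Gpc3 lies next to Gpc4 on the X chromosome, with no gene between them in the RefSeq table used. It encodes glypican-3, which limits growth by binding hedgehog ligands and is known from an overgrowth syndrome in humans. Gpc3 read 275, 524 and 436 in SC adipocytes, 411, 338 and 590 in IA adipocytes, 817, 911 and 759 in SC SVF cells and 1019, 1122 and 1414 in IA SVF cells. All adipocyte arrays lay below all SVF arrays, and the adipocytes of the depots overlapped. Adipocytes and SVF cells did not overlap for 60% of all probe sets in SC fat and 59.9% in IA fat.

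Gpc3 was lower in adipocytes than in SVF cells of both depots. The log2 difference was -0.98 ± 0.264 in SC fat (SE; 1.97-fold lower, limma adjusted p = 0.00592) and -1.35 ± 0.264 in IA fat (2.56-fold lower, adjusted p = 0.00055). Each call held in 21 of 22 alternatives, with log2 differences of -1.16 to -0.74 in SC and -1.56 to -1.17 in IA fat over all 22. With the actin ratio as a covariate the differences were -0.80 ± 0.92 and -1.23 ± 0.632 (SE) and were not called (adjusted p = 0.646 and 0.182). Between fractions the summed signal of the 9 preadipocyte and fibroblast markers moved with Gpc3. It was 55525 to 81425 in SC and 47363 to 53642 in IA adipocytes, against 339997 to 372540 and 232145 to 261407 in SVF cells of SC and IA fat. Between the SVF groups it was thus higher in SC cells, the opposite order to the Gpc3 arrays. The part of these markers in the Gpc3 difference was not tested. Neither depot comparison of Gpc3 passed the test. In SVF cells the 3 SC arrays lay below the 3 IA ones, a separation that 37.3% of all probe sets also showed. The log2 difference was -0.49 with a 95% interval of -1.05 to 0.08 (adjusted p = 0.283). In adipocytes it was -0.11, with an interval of -0.68 to 0.45 (adjusted p = 0.821), and its sign turned in some alternatives.

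The upstream sequences of these neighbours and of Sdc4, the member with the flattest profile, are shown because the 3 genes had 3 distinct patterns over the groups. RefSeq's promoter table held 4 of the 6 members (Gpc3, Gpc4, Sdc1 and Sdc4). The 250 bases before the annotated start are given 5′ to 3′ on the gene's strand (GRCm38.p6), and capitals mark GC boxes (GGGCGG, or CCGCCC on the other strand). Gpc4 is at chrX:52164924-52165173 and Gpc3 at chrX:52613975-52614224, both on the minus strand, and Sdc4 is at chr2:164443189-164443438 on the minus strand.
Gpc4: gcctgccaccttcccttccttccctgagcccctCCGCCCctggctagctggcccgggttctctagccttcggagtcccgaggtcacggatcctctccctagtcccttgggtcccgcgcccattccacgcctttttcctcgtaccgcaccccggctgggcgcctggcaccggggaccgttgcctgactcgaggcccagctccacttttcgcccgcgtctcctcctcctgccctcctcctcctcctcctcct
Gpc3: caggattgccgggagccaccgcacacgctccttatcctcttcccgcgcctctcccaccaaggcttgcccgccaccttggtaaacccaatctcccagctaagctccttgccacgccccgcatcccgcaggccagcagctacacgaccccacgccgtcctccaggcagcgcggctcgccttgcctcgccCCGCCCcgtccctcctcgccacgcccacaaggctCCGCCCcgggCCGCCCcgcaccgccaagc
Sdc4: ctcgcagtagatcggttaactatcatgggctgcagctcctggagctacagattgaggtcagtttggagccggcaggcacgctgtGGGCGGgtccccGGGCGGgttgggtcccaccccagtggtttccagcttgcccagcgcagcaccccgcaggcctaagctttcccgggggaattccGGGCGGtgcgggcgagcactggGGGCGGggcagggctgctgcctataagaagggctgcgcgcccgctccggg
Gpc4 had 1 GC box, Gpc3 3 and Sdc4 4, and GC boxes were found in 32.7% of 32851 promoter windows of this length. None of the 3 held a TATAAA (either strand), present in 12.4% of windows, or a CACGTG, present in 6.02%. G and C made up 68.4% of the Gpc4 window, 71.6% of that of Gpc3 and 68.0% of that of Sdc4, against a median of 52.4% over all windows. Only exact matches were searched, so near matches to these words were not counted. The matches describe the letters of the window only.

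Gpc1 differed between the depots in the direction opposite to Gpc4, and in SVF cells. It encodes glypican-1, a co-receptor for fibroblast growth factors found on many cell types. Gpc1 read 3941, 3259 and 3450 on the SC SVF arrays, against 2113, 1318 and 2063 on the IA ones. It read 1052, 1312 and 1458 in SC adipocytes, against 1043, 1338 and 1769 in IA adipocytes. The SC SVF arrays stood above all 9 others, which overlapped among the remaining 3 groups. SC and IA SVF arrays did not overlap for 37.3% of all probe sets tested.

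Gpc1 averaged 3550 ± 352 in SC and 1832 ± 445 in IA SVF cells (SD, n = 3 each). The log2 difference was 0.97 ± 0.219 (SE; 1.95-fold higher in SC cells, limma adjusted p = 0.00823), where 6.49% of probe sets were called higher, and it was called in 22 of 22 alternatives (adjusted p 0.000606 to 0.0458). Between the same SVF groups 3 of 9 preadipocyte and fibroblast markers and 5 of 9 endothelial markers were called higher in SC cells and none lower. The endothelial sums overlapped, at 10510 to 12078 in SC and 10329 to 17634 in IA cells. Lower were 6 of 7 smooth muscle and pericyte, 5 of 5 mesothelial and 4 of 8 macrophage markers, with 1 macrophage marker higher. The part of these markers in the Gpc1 difference was not tested. In adipocytes the log2 difference of Gpc1 was -0.10, with a 95% interval of -0.57 to 0.37 (adjusted p = 0.82). The interaction was -1.06 ± 0.31 (log2, SE; limma adjusted p = 0.0492). It lay at the threshold and passed in 8 of 21 alternatives, over a range of 0.0242 to 0.121, with the highest value without SC SVF array 1. Other arrays whose removal ended the call were arrays 1 and 2 of SC adipocytes (adjusted p = 0.0923 and 0.0703), arrays 2 and 3 of IA adipocytes (0.0901 and 0.0939), arrays 2 and 3 of SC SVF cells (0.0775 and 0.0933) and arrays 2 and 3 of IA SVF cells (0.119 and 0.058). Adipocytes carried less Gpc1 than SVF cells in SC fat, at 1274 ± 206 against 3550 ± 352 (log2 difference -1.46 ± 0.219, SE; 2.75-fold lower, limma adjusted p = 5.45e-05), not called with the actin covariate, where the difference was -2.01 ± 0.755 (adjusted p = 0.108). In IA fat Gpc1 read 1383 ± 365 in adipocytes and 1832 ± 445 in SVF cells (log2 difference -0.40, 95% interval -0.87 to 0.07, adjusted p = 0.15). That difference passed without IA adipocyte array 3 (adjusted p = 0.0446) or without IA SVF array 2 (0.0335).

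Sdc2 had the largest difference between fractions of the 6 members tested. It encodes syndecan-2, the syndecan typical of fibroblasts and other mesenchymal cells. Its probe set 95104_at read 655, 1454 and 1129 in SC adipocytes, 1416, 877 and 928 in IA adipocytes, 7167, 6919 and 7058 in SC SVF cells and 8932, 11660 and 9301 in IA SVF cells. Every adipocyte array was far below every SVF array, and 60% of all probe sets in SC and 59.9% in IA fat also showed no overlap. The sums of the fibroblast markers given above were likewise lower in adipocytes. In SVF cells, though, those sums were higher in SC than in IA fat, the opposite order to 95104_at.

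The log2 difference of Sdc2, adipocytes minus SVF cells, was -2.73 ± 0.241 in SC fat (SE; 6.64-fold lower, limma adjusted p = 2.32e-07) and -3.19 ± 0.241 in IA fat (9.12-fold lower, adjusted p = 4.41e-08). These were the 240th and 197th lowest of 8695. With the actin ratio as a covariate they were -1.37 (adjusted p = 0.28) and -2.30 (adjusted p = 0.00587). Between depots, the SVF difference was -0.49 with a 95% interval of -1.004 to 0.03 (limma adjusted p = 0.233). The 3 SC arrays lay below the IA ones, and 37.3% of all probe sets did not overlap between these groups. The Sdc2 difference was called with only the 6 SVF arrays (limma adjusted p = 0.0165) and with array weights (0.037). The adipocyte difference was -0.03, with an interval of -0.55 to 0.49, and its sign turned in some alternatives. The other Sdc2 probe set, 162215_f_at, read 7.0 to 84.3 on the adipocyte arrays, 120 to 192 in SC and 21.3 to 111 in IA SVF cells. It was thus higher in SC than in IA SVF cells on every array, the opposite order to 95104_at, at dim signals, and the depot difference did not pass the test without the filter (log2 difference 1.04, limma adjusted p = 0.161; 8.83% of probe sets called). In that setting the fraction difference of 162215_f_at was called in SC fat (log2 difference -1.605, adjusted p = 0.00595) but not in IA fat (-0.41, adjusted p = 0.496).

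The pair of Sdc1 probe sets did not give the same picture. Sdc1 encodes syndecan-1, the syndecan of epithelia and plasma cells and, in mouse liver, a receptor that clears lipoproteins. Probe set 96033_at read 47.6, 22.3 and 43.6 in SC adipocytes, 36.6, 37.0 and 52.5 in IA adipocytes, 363, 261 and 476 in SC SVF cells and 632, 555 and 791 in IA SVF cells. Its adipocyte signals were close to the pseudocount, and all SVF arrays lay above them. Of the probe sets that passed the filter, 60% in SC and 59.9% in IA fat did not overlap between fractions.

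Without the filter 96033_at was called lower in SC adipocytes than in the SVF cells (log2 difference -2.37 ± 0.336, SE; limma adjusted p = 4.37e-05) and in IA adipocytes (-3.08 ± 0.336, adjusted p = 2.95e-06). That setting called 38.4% and 36.7% of 12422 probe sets. The means were 37.8 in SC and 42.1 in IA adipocytes, against 367 and 659 in the SVF cells. As the adipocyte means lay near the pseudocount of 40.09, the size of these differences depends on it and no fold is given. Between the depots its SC SVF arrays lay below the IA ones, where 37.3% of the probe sets that passed the filter did not overlap. The log2 difference of 96033_at there, -0.80 ± 0.336, did not pass (limma adjusted p = 0.193). Probe set 161370_f_at, the one tested for Sdc1, read 763, 348 and 344 in SC adipocytes, 361, 348 and 232 in IA adipocytes, 440, 515 and 712 in SC SVF cells and 633, 576 and 364 in IA SVF cells. It was called in none of the 5 comparisons by limma, and none had an unadjusted p under 0.05 (lowest 0.0695, for IA adipocytes minus SVF cells, log2 difference -0.66 with a 95% interval of -1.38 to 0.06). Over the 12 arrays the log2 values of the pair correlated with Pearson's r = 0.474. Lower in adipocytes, as 96033_at was, were 7 of 9 fibroblast markers in SC fat and 8 of 9 in IA fat, and 5 of 5 mesothelial markers in IA fat (none in SC fat, where 1 was higher). All 5 mesothelial markers were also lower in SC than in IA SVF cells. Of 4 B and plasma cell markers 3 were higher in SC and 1 in IA adipocytes than in the SVF cells. The part of these markers in the Sdc1 signal was not tested.

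Sdc4 was close to level across the groups. It encodes syndecan-4, which works with integrins at focal adhesions. Sdc4 read 2777, 2086 and 1888 in SC adipocytes, 2201, 2390 and 2184 in IA adipocytes, 1909, 2699 and 2184 in SC SVF cells and 2101, 2549 and 1548 in IA SVF cells. All 4 groups overlapped with one another.

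The log2 differences of Sdc4 were -0.02 (95% interval -0.45 to 0.40) between adipocytes and 0.14 (-0.28 to 0.57) between SVF cells of the depots. Adipocytes minus SVF cells gave -0.01 (-0.44 to 0.41) in SC and 0.15 (-0.27 to 0.58) in IA fat. The adjusted p-values of limma were 0.549 to 0.962. The 4 group means accounted for 7.85% of the variance of its log2 values, against a median of 73.2% over the probe sets tested and 98.0% for Gpc4.

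**Figure D2:**
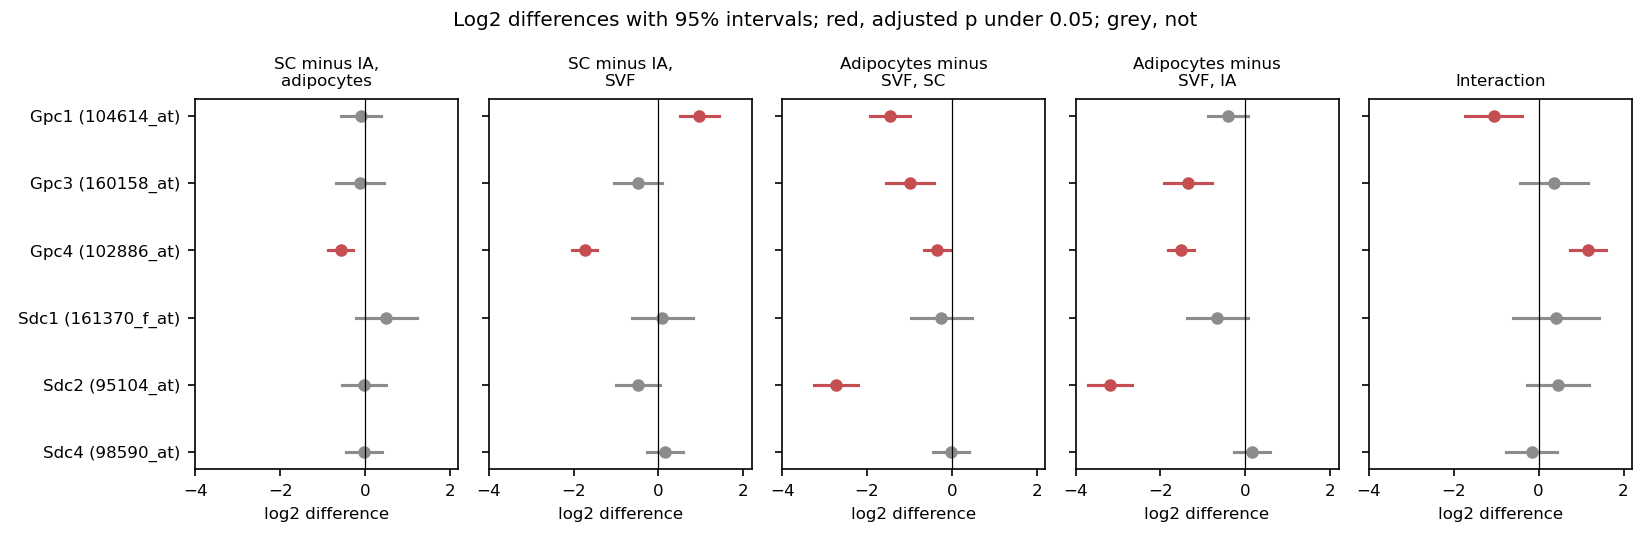
Log2 differences of the 6 tested glypican and syndecan probe sets in the 5 comparisons, with 95% intervals from the limma model (points, estimates; red, adjusted p under 0.05; grey, not). SC is subcutaneous, IA intraabdominal and SVF the stromo-vascular fraction; the interaction is the adipocyte depot difference minus the SVF depot difference. Gpc4 lies left of 0 in all 4 differences between groups, Gpc1 and Gpc4 lie on opposite sides of 0 for the depot difference of SVF cells, and Sdc4 stays near 0.

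Counted together, 1 of the 6 tested members was called between the adipocytes of the depots, lower in SC cells, where 8.13% of all probe sets were called. In SVF cells 1 was higher and 1 lower in SC cells (12.9% called over all). Between fractions 4 were lower and none higher in SC adipocytes (29.4% of all probe sets called lower and 23.5% higher, 52.8% in all), and 3 were lower and none higher in IA adipocytes (29% called lower and 22.4% higher, 51.3% in all). The fourth in SC fat was Gpc4, at a log2 difference of -0.35 ± 0.14 (SE; 1.28-fold, limma adjusted p = 0.0463), which passed in 7 of 22 alternatives. Over these it ran from -1.20 ± 0.41 with the actin covariate (SE; adjusted p = 0.0774) to -0.24 ± 0.135 without SC adipocyte array 3 (adjusted p = 0.162). Leaving out array 2 of SC adipocytes (0.0528), array 1 or 2 of IA adipocytes (0.0533 and 0.0577), array 1, 2 or 3 of SC SVF cells (0.0991, 0.108 and 0.0835), or array 1 or 3 of IA SVF cells (0.0512 and 0.0578) also ended that call. In IA fat the same comparison gave -1.52 ± 0.14 (2.86-fold lower, limma adjusted p = 3.58e-07), called in 22 of 22 alternatives. The interaction called 2 members, Gpc4 positive and Gpc1 negative, where 8.43% of probe sets were called (3.9% positive, 4.53% negative). The median log2 difference of the members was -0.06, -0.20, -0.67 and -1.01 in these comparisons, in the order given, and 0.39 in the interaction, against 0.07, 0.06, -0.04, -0.11 and 0.03 over all probe sets tested.

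The depot difference of all probe sets in adipocytes depended on single arrays. The 707 called, of which 48.8% were higher in SC cells, became 372 and 365 without IA adipocyte arrays 1 and 2. With arrays centred on their medians 18.0% of 958 were higher, and in the interaction 32.9% of 695 against 46.2% of 733 as deposited.

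**Figure D3:**
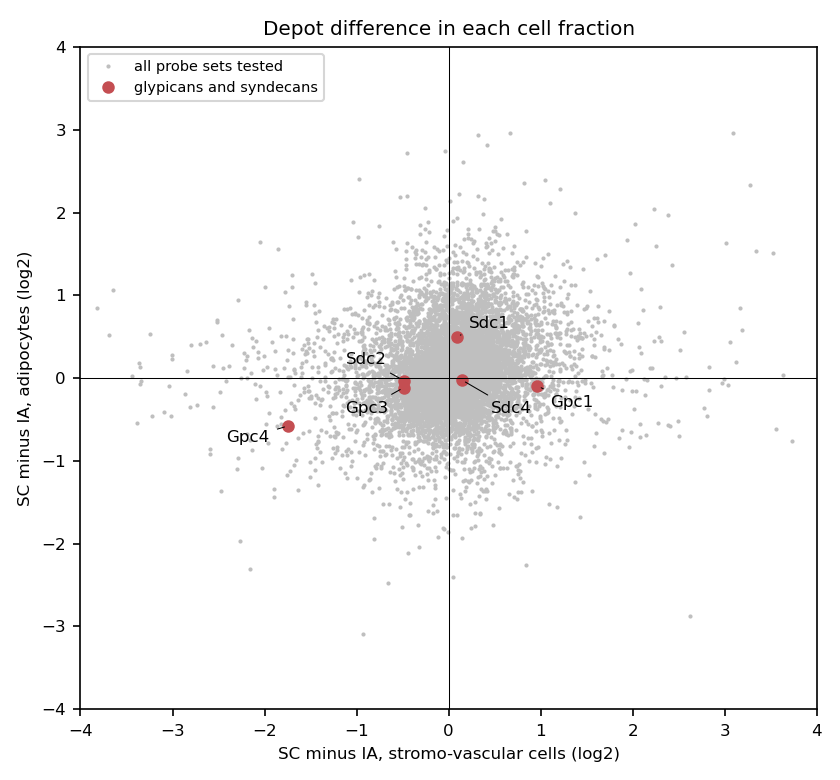
Subcutaneous (SC) minus intraabdominal (IA) log2 differences in SVF cells (horizontal) and adipocytes (vertical) for the 8695 probe sets tested (grey; 17 lie outside the axes) and the 6 tested glypicans and syndecans (red). The axes share no arrays. Gpc4 lies low on both axes (-1.74 and -0.58), Gpc1 to the right on the horizontal axis alone (0.97), and the other 4 members within 0.51 of 0 on both.

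Of the enzymes that build heparan sulfate, more were lower than higher in adipocytes set against SVF cells. Of 13 tested genes for chain synthesis and modification (15 of 29 listed on the array) 1 was higher and 7 lower in SC adipocytes, with a median log2 difference of -0.61, against -0.04 over all probe sets. In IA adipocytes 2 were higher and 7 lower (median -0.49 against -0.11). Over all probe sets 29.4% were called lower in SC and 29% in IA adipocytes. With arrays centred on their medians the IA count was 2 higher and 5 lower, and no gene of the list called as deposited turned its sign. Ext1 and Ext2, the pair of polymerases that extend the chain, led the lower genes. Ext1 read 1428 ± 201 in SC adipocytes against 6061 ± 684 in SC SVF cells (4.16-fold lower, limma adjusted p = 3.19e-08) and 1542 ± 221 against 8381 ± 642 in IA fat (5.35-fold lower, adjusted p = 5.08e-09; SD, n = 3 each). Ext2 was 3.15-fold and 3.16-fold lower. Ugdh, which makes the glucuronic acid donor, was 2.35-fold and 2.26-fold lower, and Slc35b2, which carries the sulfate donor into the Golgi, 1.61-fold lower in SC and 1.33-fold lower in IA adipocytes. Of the pair of enzymes that make that donor, Papss1 was higher in SC and IA adipocytes, by 0.67 and 0.93 on the log2 scale, whereas Papss2 was 1.52-fold lower in SC adipocytes (log2 difference -0.61, limma adjusted p = 0.00938) and read -0.21 in IA fat (adjusted p = 0.348). Between depots the list gave no call in adipocytes (limma; 0 of 13, with 0 at an unadjusted p under 0.05), where 8.13% of all probe sets were called. In SVF cells, where 12.9% of all probe sets were called, 1 was higher and none lower in SC cells. It was Extl3, which starts the heparan sulfate chain, at 5920 ± 436 against 3472 ± 248 (1.70-fold higher, limma adjusted p = 0.00334). Extl3 was also called in the interaction, at -0.98 ± 0.215 (log2, SE; adjusted p = 0.00979).

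**Figure D4:**
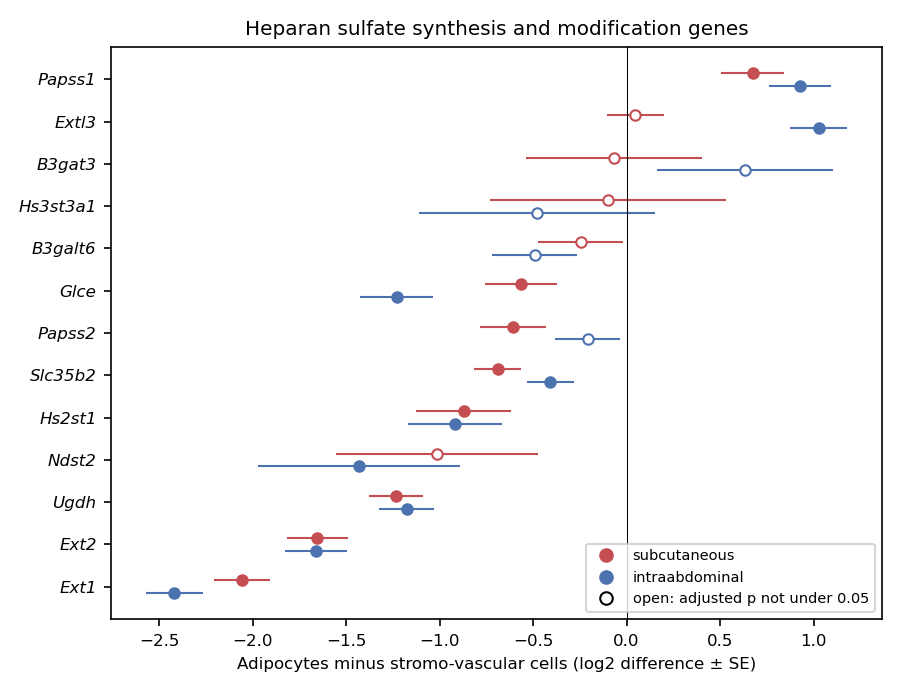
Log2 differences, adipocytes minus SVF cells (± SE from the limma model), of the 13 tested heparan sulfate synthesis and modification genes in SC (red) and IA (blue) fat; filled points had an adjusted p under 0.05. Ext1 and Ext2 lie furthest left in both depots (-1.65 to -2.42), and Papss1 lies right of 0 in both.

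Among 14 other proteoglycans tested, 4 were higher and 7 lower in SC adipocytes than in the SVF cells, and 2 higher and 7 lower in IA adipocytes, where 52.8% (SC) and 51.3% (IA) of all probe sets were called. Bgn, the small matrix proteoglycan biglycan, was 18.0-fold and 19.7-fold lower. Nrp1, a receptor of VEGF and semaphorins that can carry a sugar chain, read 25190 ± 10800 in SC adipocytes against 2123 ± 95.2 in the SVF cells (10.8-fold higher, limma adjusted p = 3.51e-08). Between the depots 2 were higher and 3 lower in SC SVF cells, where 12.9% of all probe sets were called. The lower ones were Hspg2, the basement membrane proteoglycan perlecan (1.82-fold), Nrp1 (2.67-fold) and lumican, Lum (3560 ± 370 against 8487 ± 640, 2.37-fold), and decorin, Dcn, was among the higher (1.69-fold). In adipocytes, where 8.13% of all probe sets were called, 1 of the list was called, the hyaluronan receptor Cd44, lower in SC cells. Its signals there, 26.8 ± 2.7 in SC against 134 ± 30.5 in IA adipocytes, lay below the filter level of 172.6, which it passed through the SVF groups (908 ± 133 in SC and 799 ± 98.2 in IA cells), so no fold is given.

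Of 12 proteins that bind or cut the cores, 7 were lower and none higher in SC adipocytes, and 7 lower and 1 higher in IA adipocytes, where 29.4% and 29% of all probe sets were called lower and 52.8% and 51.3% were called in all. Mmp14, a membrane protease that can shed syndecan-1, read 2966 ± 137 in SC adipocytes against 29400 ± 3240 in SC SVF cells (9.76-fold lower, limma adjusted p = 1.82e-09) and 2046 ± 742 against 21770 ± 1590 in IA fat. Itgav, the integrin chain that works with syndecan-1, was 3.67-fold and 4.32-fold lower. Between the depots Cask, a scaffold that binds syndecan tails, was 1.59-fold lower and Adam10, a sheddase, 1.65-fold lower in SC SVF cells, whereas Mmp3, a matrix protease, was 4.77-fold higher. Between adipocytes, where 8.13% of all probe sets were called, Mmp3 was also the 1 gene of this list called (3.02-fold higher in SC cells). It read 622 ± 198 in SC and 179.5 ± 70.4 in IA adipocytes, the latter near the filter level of 172.6. In SVF cells it read 68070 ± 3880 in SC and 14270 ± 1370 in IA fat (SD, n = 3 each). With arrays centred on their medians the count of this list between adipocytes was 1 higher and 2 lower.

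Of 26 tested ligands and receptors that use heparan sulfate, 6 were higher and 2 lower in SC than in IA SVF cells, where 12.9% of all probe sets were called. The median log2 difference of the list there was 0.00099, against 0.06 over all. In adipocytes limma called none, against 8.13% of all probe sets (6 had an unadjusted p under 0.05, and 1 was called lower with arrays centred on their medians). In SC SVF cells Fgfr1 was 1.94-fold higher, at 8215 ± 698 against 4223 ± 601 (limma adjusted p = 0.000696), and Fgfr2 3.20-fold lower, at 761 ± 54.6 against 2527 ± 226 (adjusted p = 1.2e-05). These are receptors of fibroblast growth factors. Bmp4, which commits precursors to the fat lineage, was 2.37-fold lower, and the chemokine Cxcl12 2.03-fold higher. Each of these 4 was also called in the interaction. Between fractions 7 were higher and 8 lower in SC adipocytes and 5 higher and 9 lower in IA adipocytes, shares near the 52.8% and 51.3% called over all probe sets. Lpl, the lipase that is carried on heparan sulfate, was 4.57-fold and 9.64-fold higher in adipocytes, and Pdgfra, a receptor that marks precursors, 31.2-fold and 73.9-fold lower.

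The genes whose log2 values followed each member most closely over the 12 arrays are given as a description, since arrays of a group share their tissue and culture and the values fall into 4 groups. For Gpc4 they were Csrp1 (r = 0.975), a LIM protein of the actin skeleton, Tgfb3 (r = 0.974), a growth factor, and Mylk (r = 0.966), the kinase of smooth muscle myosin. Mean Csrp1 signals were 2016 and 4355 in adipocytes of SC and IA fat and 3533 and 17480 in SVF cells of SC and IA fat, with the same highest and lowest groups as Gpc4. Those of Mylk were 6706 and 13090 in adipocytes and 7683 and 37600 in SVF cells of SC and IA fat. For Gpc1 they were the transcription factor Cebpb (r = 0.929), Cyp7b1 (r = 0.922) and Mocos (r = 0.922). By ranks the correlation with Gpc1 was lower for Cebpb (Spearman's rho = 0.636) than for Cyp7b1 (0.881) and Mocos (0.818). For Gpc3 the closest genes were Amotl2 (r = 0.965), Dync1i2 (r = 0.962) and Pgrmc1 (r = 0.962), and for Sdc2 Synj2 (r = 0.988), Mthfd2 (r = 0.987) and Tmem30a (r = 0.987). For the tested Sdc1 probe set they were Nhlh1 (r = 0.893), Sipa1 (r = 0.805) and Adssl1 (r = 0.801). Sdc4 had no close companion, the highest being Tacr2 (r = 0.774), Tut7 (r = 0.754) and Ciita (r = 0.745). Among the members, Sdc2 95104_at and Gpc3 correlated at r = 0.928 and Sdc2 95104_at and Sdc1 96033_at at r = 0.952, whereas Gpc1 and Gpc4 correlated at r = 0.044.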

How the data were processed

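Messenger RNA was measured on 12 Affymetrix expression arrays, 3 in each of 4 groups. Each array's deposited column gives the linear intensity of every probe set, which the authors made with MAS5, per the submitters' processing notes. The program's version is not given in the sources used here. Arrays had 2% trimmed means of 1501.0 to 1501.3, so the values were used without further scaling. No pair of arrays was identical.

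The 66 control probe sets were left out. Symbols came from the platform annotation, which can be old, and 10817 probe sets matched a current gene record by Entrez number. A pseudocount of 40.09 (10th percentile of the table) was added to each signal before taking log2, so folds of dim genes are understated. The dimmest 30% of probe sets by mean log2 signal were not tested, which left 8695. All 12 arrays entered 1 model of 4 group means in limma 3.58.1 on R 4.3.3 (lmFit, contrasts.fit, and eBayes with trend), with 8 residual degrees of freedom. P-values are two-sided and adjusted by Benjamini-Hochberg over all 8695 probe sets, and a probe set was called at an adjusted p under 0.05. The steps were tested on simulated data.

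All members were named. From each pathway list up to 4 called genes per comparison with the smallest p could be named, each gene by its probe set with the highest mean, and for each member the 3 genes with the highest Pearson correlation over the arrays. Names outside this rule, given to complete a count, were chosen after their values were seen. The members and lists were chosen with earlier results of these data known. Alternatives changed the pseudocount, the filter, the scaling, array weights, the arrays fitted, a replicate block and a covariate for RNA quality. As nothing says that arrays of a group come from separate pools, p-values measure only the spread between these samples. The number of arrays limits the precision.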

Additional observations from a re-analysis of the deposited data

Results flagged for a closer look

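The difference between subcutaneous (SC) and intraabdominal (IA) fat was not the same in adipocytes and in the stromo-vascular fraction (SVF) for 2 members, by limma's test of the interaction (adipocyte depot difference minus SVF depot difference). For Gpc4 it was 1.16 (log2, adjusted p = 0.00175), with Gpc4 lower in SC cells by -1.74 (log2) in the SVF and by -0.58 in adipocytes. For Gpc1 it was -1.06 (log2, adjusted p = 0.0492), with Gpc1 higher in SC SVF cells and its adipocyte groups overlapping, and this call passed in 8 of 21 alternatives.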

How the results depend on the processing

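The replicate numbers of the labels gave no clear pairing of the arrays. Deviations of same-numbered arrays correlated at -0.086 to 0.11, and the own number was the closest in 6 of 18 comparisons of arrays. Whether same-numbered samples shared a pool of mice cannot be told from these correlations. With a replicate block the interaction called 1 member instead of 2 (Gpc1 adjusted p = 0.0521), and the subcutaneous (SC) fraction difference of Gpc4 was not called (adjusted p = 0.0669). The interaction also called 1 member with a pseudocount of 22.4 (5th percentile), with no filter and with the actin covariate, and 1 to 2 when single arrays were left out. Between adipocytes of the depots, array weights and a fit of only the 6 arrays called 0 members, and leaving out single arrays 0 to 1. Over all probe sets that comparison gave 297 calls with only the 6 arrays, 97 with the actin covariate and 365 to 949 without single arrays. Between cells of the stromo-vascular fraction (SVF) of the depots array weights gave 1952 calls and only the 6 arrays 1690, with 4 members called, Sdc1 96033_at and Sdc2 being added. With the actin covariate 1058 probe sets and 0 members were called between fractions in SC fat, 2173 in intraabdominal (IA) fat and 403 in the interaction. As the actin ratio of the fractions did not overlap, these counts cannot tell RNA quality from cell fraction. Leaving out single arrays gave 3 to 5 members between fractions in IA fat. Sdc1 96033_at, which then passed the filter, was added in both depots whichever single adipocyte array was left out. It was also added with the pseudocount at the 25th percentile. Gpc1 was added in IA fat without IA adipocyte array 3 or without IA SVF array 2.

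Signs turned only in differences that were not called. Between adipocytes of the depots these were Gpc3 (0.015 with array weights; -0.30 to 0.12 without single arrays), Sdc2 (0.019 with weights, 0.51 with the actin covariate; -0.27 to 0.28), Gpc1 (-0.28 to 0.093) and Sdc4 (-0.18 to 0.092). Between SVF cells they were Sdc1 (-0.14 to 0.23) and Sdc4 (-0.046 to 0.31). Between fractions they were Sdc4 in SC fat (0.10 with quantile normalization; -0.17 to 0.12) and in IA fat (-0.084 with the actin covariate; -0.036 to 0.32), and in the interaction Sdc4 (-0.33 to 0.023). Of 649 recomputed member differences 588 kept direction and side of the threshold, 35 lost a call, 4 gained one and 22 turned sign. The causes were not tested. Detection calls were not used here, so which signals lay below background is not known.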
